A study of Mus musculus with 6 samples.

Results

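The 10 genes described here encode the actin filament proteins by which smooth muscle is usually recognised: the actins Acta2 and Actg2, the calponins Cnn1, Cnn2 and Cnn3, the calponin-related protein transgelin (Tagln), the myosin regulatory light chain Myl9, the tropomyosins Tpm1 and Tpm2, and caldesmon (Cald1). They were picked by name, with earlier results of the same VPA against PBS comparison known, and all 10 were measured among 19938 genes, each by 1 probe set paired with that gene alone. Their VPA minus PBS differences are therefore given as a description without a test.

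RNA came from cultures of W4, a mouse embryonic stem cell line, after 16 days of differentiation into neurons in an adherent medium. Valproate (VPA), an antiepileptic drug and histone deacetylase inhibitor known as a developmental neurotoxicant, was present at 300 uM in the medium of 3 cultures. The 3 control cultures were given phosphate-buffered saline (PBS), the solvent. All 6 samples are thus whole cultures of 1 cell line at 1 time point, and the design text calls the 3 of each group biological replicates.

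In smooth muscle, force comes from myosin pulling on filaments of actin, and phosphorylation of the myosin regulatory light chain switches this on. Tropomyosins lie along the filament, while calponins and caldesmon bind it and restrain myosin. Many of these genes are switched on together by serum response factor (SRF) with its coactivators myocardin and the myocardin-related factors (MRTFs), which act through a DNA element called the CArG box. Several of them are also made outside smooth muscle, in myofibroblasts, fibroblasts and other cells that build stress fibres.

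All values are deposited signals on a log2 scale, so that a difference of 1 is a doubling. Array medians lay between 6.99 and 7.03. No detection calls were used; the 95th percentile of 1027 olfactory receptor genes, 6.15, served as a background gauge, and a gene whose mean lay below it was not told apart from background. Neuron markers were well above it: the list of 13, from Tubb3 to Elavl4, averaged 10.68 to 10.69 on the VPA arrays and 10.73 to 10.80 on the PBS arrays. VPA replicate 1 stood further from VPA replicates 2 and 3, at a median absolute difference of 0.12 and 0.13 over all genes, than those stood from each other, at 0.07.

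The members fell into 3 patterns. Acta2, Cnn2, Myl9, Tpm1, Tpm2 and Cald1 were higher on all 3 VPA arrays than on any PBS array. Cnn3 was strongly detected and had overlapping groups. Actg2, Tagln and Cnn1 lay below the background gauge in both groups, and of these the groups of Cnn1 did not overlap, with VPA below. In all, the groups of 7 of the 10 members did not overlap, 6 with VPA above; over all genes the groups did not overlap for 44.0%, with VPA above for 20.2% and below for 23.8%. The median difference was 0.64 over the 10 members and 0.0013 over all genes. Since the contrast was known when the members were chosen, these counts are descriptive.

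**Figure D1:**
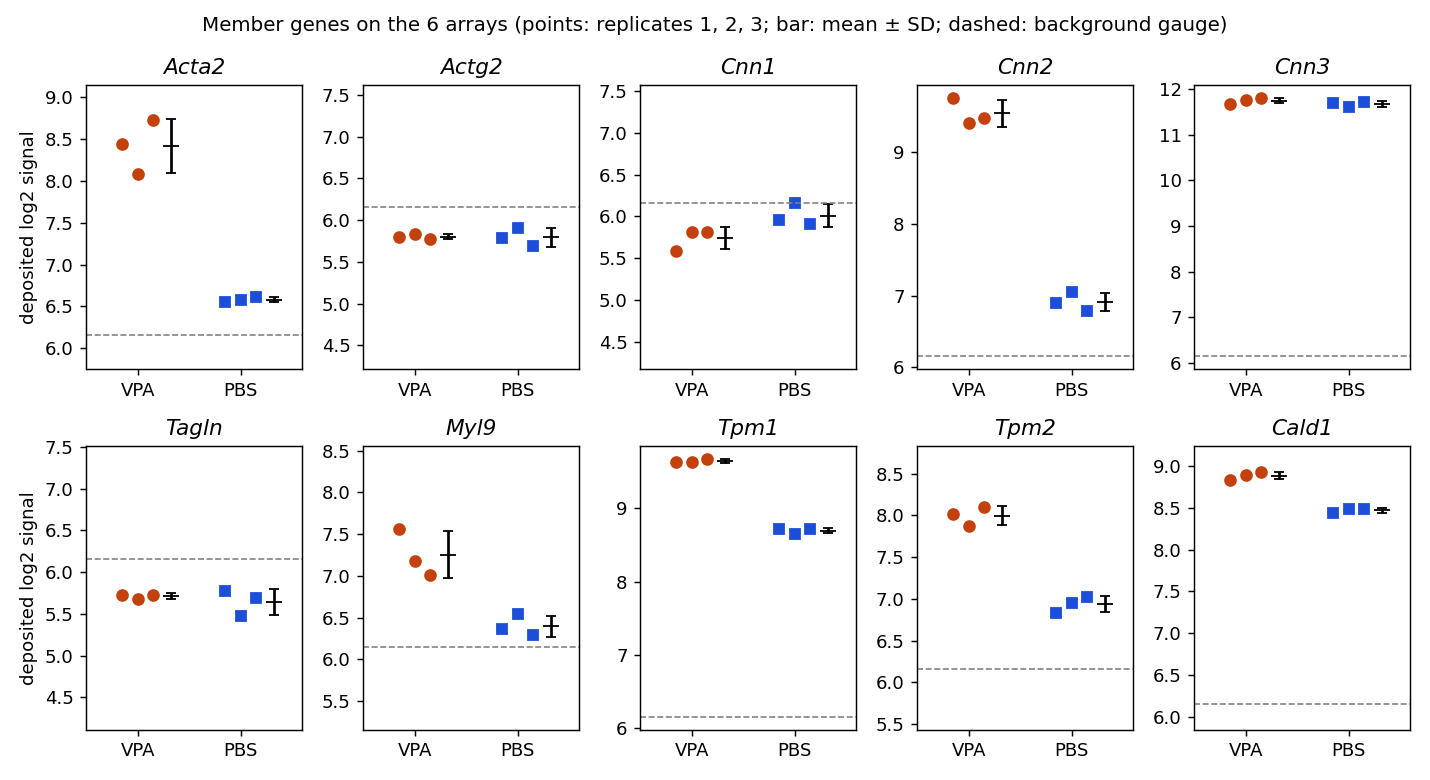
Deposited log2 signal (vertical axis, whose range differs between panels) of each of the 10 genes in VPA cultures (left, circles) and PBS cultures (right, squares), with the points in the order of replicates 1, 2 and 3, the mean ± SD, and the background gauge of 6.15 as a dashed line. Acta2, Cnn2, Myl9, Tpm1, Tpm2 and Cald1 have all VPA points above all PBS points, whereas Actg2, Tagln and Cnn1 have both means under the gauge.

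Among the actins, Acta2 (probe set 10467124), which encodes smooth muscle alpha-actin and also marks myofibroblasts, had 8.44, 8.09 and 8.74 on VPA replicates 1, 2 and 3, against 6.55, 6.57 and 6.61 on the PBS replicates. The VPA arrays were more widely spaced than the PBS arrays, and the lowest of them was 1.48 above the highest PBS array. The difference was 1.85 (SE 0.14 from the limma fit, n = 3 each), or 3.59-fold on the measured scale, and ranked 39 from the highest among 19938 genes. The PBS mean of 6.58 was only slightly above the gauge. Actg2 (probe set 10545707), the gamma-actin of enteric smooth muscle, had 5.80, 5.83 and 5.77 with VPA, against 5.78, 5.91 and 5.69 with PBS. Its groups overlapped, and no array reached the gauge.

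The VPA minus PBS differences of the 3 calponins lay far apart. Cnn2 (probe set 10364593), the calponin of non-muscle and smooth muscle cells alike, had 9.76, 9.41 and 9.48 with VPA, against 6.90, 7.05 and 6.79 with PBS. Its difference of 2.64 (SE 0.10), or 6.23-fold, ranked 5 from the highest among all genes, and the gap between the groups was 2.36. Cnn1 (probe set 10583809), the calponin most restricted to differentiated smooth muscle, had 5.58, 5.81 and 5.82 with VPA, against 5.95, 6.16 and 5.91 with PBS. VPA lay below PBS by 0.27 (SE 0.09), with a gap of 0.10, at levels that were not told apart from background in either group. Cnn3 (probe set 10495659), the acidic calponin that is also made in brain, had 11.68, 11.77 and 11.80 with VPA, against 11.69, 11.61 and 11.73 with PBS. These values overlapped, and the difference was 0.07 (SE 0.06).

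Tagln (probe set 10593123), which encodes the actin-bundling protein also called SM22 and is an early marker of smooth muscle, had 5.73, 5.67 and 5.73 with VPA, against 5.77, 5.48 and 5.69 with PBS. All 6 arrays lay under the gauge and the groups overlapped. Whether this probe set detects its transcript could not be checked here, as no detection calls were used.

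Myl9 (probe set 10477920), the regulatory light chain of smooth muscle and non-muscle myosin, had 7.56, 7.18 and 7.01 with VPA, against 6.36, 6.54 and 6.29 with PBS. All VPA arrays were higher, by 0.86 on average (SE 0.13, 1.81-fold), and the highest was VPA replicate 1. Without VPA replicate 1 the difference was 0.70. The PBS mean, 6.40, was close to the gauge.

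Tpm1 and Cald1 had the smallest spread between replicates of the 10 members. Tpm1 (probe set 10594661), a tropomyosin gene whose transcripts are spliced differently in muscle and non-muscle cells, had 9.63, 9.63 and 9.68 with VPA, against 8.72, 8.65 and 8.71 with PBS. Replicates differed by less than 0.1 in either group, and the difference was 0.95 (SE 0.05, 1.93-fold). Tpm2 (probe set 10512499), or beta-tropomyosin, had 8.01, 7.87 and 8.11 with VPA, against 6.83, 6.95 and 7.02 with PBS. That is a difference of 1.06 (SE 0.08, 2.09-fold) with a gap of 0.85. Cald1 (probe set 10537184), whose product caldesmon occurs in a smooth muscle and a non-muscle form, had 8.84, 8.89 and 8.93 with VPA, against 8.44, 8.48 and 8.49 with PBS. The groups were apart by 0.35 and the difference, 0.42 (SE 0.06, 1.34-fold), was the smallest of the 6 higher members. A probe set gives 1 value for a gene, so the splice forms of Tpm1, Tpm2 and Cald1 were not separated here.

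By size of difference the order was Cnn2, Acta2, Tpm2, Tpm1, Myl9, Cald1, Cnn3, Tagln, Actg2 and Cnn1. Tpm2, Tpm1 and Myl9, at 1.06, 0.95 and 0.86, lay within 2 SE of each other, as did Cnn3, Tagln and Actg2. Cnn2 stood above Acta2, and Acta2 above Tpm2, by more than that. This spacing describes chosen genes, each on its own probe set, and is not a tested ranking. Within the VPA group no array was highest throughout: VPA replicate 3 was the highest of the 3 for 7 members, VPA replicate 1 for Cnn2 and Myl9, and VPA replicate 2 for Actg2. VPA replicate 1 and the average of VPA replicates 2 and 3 differed by a median size of 0.05 over the members and 0.12 over all genes. In whole cultures, more cells of a type and more RNA per cell cannot be told apart.

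The promoters were examined because 6 members were higher together and the CArG box is the known element of this gene family. RefSeq promoter windows on mouse build GRCm38.p6, from 250 bases before the annotated start to 50 after it, were found for 8 members, with a pair of windows for Cald1; Actg2 and Tagln were not used in this step. The windows of Acta2, Myl9 and Cnn2 are shown because they hold a CArG box or a close variant, and that of Cnn3 because its gene was detected with overlapping groups. They run 5′ to 3′ on the strand of the gene, and capitals mark the CArG box or the variant with 1 G or C in its A/T core.
Cnn2 (chr10:79988350-79988649, plus strand): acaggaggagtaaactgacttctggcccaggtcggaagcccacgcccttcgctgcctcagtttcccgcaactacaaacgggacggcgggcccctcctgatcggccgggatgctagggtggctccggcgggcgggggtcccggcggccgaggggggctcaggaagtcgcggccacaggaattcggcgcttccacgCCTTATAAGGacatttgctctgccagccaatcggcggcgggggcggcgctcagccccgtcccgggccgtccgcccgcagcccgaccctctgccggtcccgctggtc
Myl9 (chr2:156775214-156775513, plus strand): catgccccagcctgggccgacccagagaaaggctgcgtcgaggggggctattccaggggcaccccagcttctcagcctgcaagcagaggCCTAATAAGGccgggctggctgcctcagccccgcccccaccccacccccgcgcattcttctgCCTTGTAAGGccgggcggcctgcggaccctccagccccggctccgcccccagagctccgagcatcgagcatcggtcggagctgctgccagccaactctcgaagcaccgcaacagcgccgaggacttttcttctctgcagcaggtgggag
Acta2 (chr19:34255324-34255623, minus strand): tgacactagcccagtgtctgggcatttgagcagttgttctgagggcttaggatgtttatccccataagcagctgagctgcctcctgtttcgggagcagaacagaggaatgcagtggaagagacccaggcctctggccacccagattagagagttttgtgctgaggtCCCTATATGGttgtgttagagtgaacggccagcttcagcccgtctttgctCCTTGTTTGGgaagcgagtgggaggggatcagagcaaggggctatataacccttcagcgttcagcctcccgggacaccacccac
Cnn3 (chr3:121426291-121426590, plus strand): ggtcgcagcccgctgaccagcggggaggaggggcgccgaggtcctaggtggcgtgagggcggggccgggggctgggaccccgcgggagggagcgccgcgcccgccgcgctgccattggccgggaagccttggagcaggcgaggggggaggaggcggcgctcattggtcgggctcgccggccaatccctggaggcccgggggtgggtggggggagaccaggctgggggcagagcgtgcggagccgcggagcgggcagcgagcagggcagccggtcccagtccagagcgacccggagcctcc

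A full CArG box was present in 2 of the 9 windows, as CCTTATAAGG starting at position -56 in Cnn2 and as CCTAATAAGG at -161 in Myl9. Positions are counted from the annotated start site, which was not checked against other starts. Over all 32851 windows in the table, 1.63% held one. The variant with 1 G or C in the core was found in 2 of the 9 windows: in Acta2 as CCCTATATGG at -84 and CCTTGTTTGG at -34, and in Myl9 as CCTTGTAAGG at -99. Of all windows 8.5% held this variant. Both forms read on either strand. The windows of Cnn1, Cnn3, Tpm1, Tpm2 and Cald1 held neither form within these 300 bases. The element CATTCC, bound by TEAD factors and searched on both strands, occurred in the windows of Acta2, Tpm1 and Cald1 (3 of 9, against 14.7% of all windows). GGGCGG, the GC box, was in 6 of 9 windows, against 35.7% of all. It lay in Cnn2, Cnn3, Myl9, Tpm1, Tpm2 and 1 Cald1 window, thus also in the window of Cnn3. TATAAA was in 1 Cald1 window (1 of 9, against 13.6%). This search did not count near forms, such as the tatataa that follows the annotated start in the Acta2 window. The Cnn2 and Cnn3 windows were rich in G and C, at 70.7% and 78.3%, that of Acta2 less so at 54.7%, and the median over all windows was 52.7%. Such matches are letters in a window and not binding measured in these cells.

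The related genes below are not members and were tested in the fit over all genes with limma, in which a gene passed at a Benjamini-Hochberg adjusted p under 0.05. Their lists, like the members, were chosen with earlier results of these data known. The counts per list are therefore descriptive and not independent support. Of 19938 genes 29.2% passed, 13.6% higher and 15.7% lower with VPA, so each count is read against these shares. Without PBS replicate 2 the 2702 higher and 3123 lower genes became 1778 and 2058.

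Within the same protein families, 7 of 14 other actins, tropomyosins, transgelins and non-muscle myosin genes rose and 1 fell (median 0.18). Actc1, cardiac alpha-actin, had 10.02, 9.90 and 10.67 with VPA, against 7.18, 7.48 and 7.15 with PBS, and rose by 2.93 (SE 0.18, limma adjusted p = 9.26e-06). Like Acta2 it was highest on VPA replicate 3 and lowest on VPA replicate 2. Tagln2, the transgelin of non-muscle cells, had 9.17, 8.90 and 9.02 with VPA, against 7.73, 7.50 and 7.63 with PBS. It rose by 1.41 (SE 0.09, limma adjusted p = 9.26e-06), and the 1 gene that fell was Tagln3, the neuronal transgelin, at -0.23 (SE 0.06, limma adjusted p = 0.0157). That call was lost without VPA replicate 2, PBS replicate 2 or PBS replicate 3, which left 0 falls. The non-muscle myosin light chain gene Myl12a rose by 0.74 (SE 0.07), while its close relative Myl12b differed by 0.01 (SE 0.06); for such close paralogues the split of signal is uncertain. Actn1, which encodes the alpha-actinin of stress fibres, rose by 0.59 (SE 0.09). Tpm3 and Tpm4, tropomyosins also made in non-muscle cells, had differences of 0.11 (SE 0.07) and 0.09 (SE 0.07) and did not pass. Of the 4 probe sets of Tpm3 only the brightest is given. Actb, cytoplasmic beta-actin, averaged 13.30 with VPA and 13.26 with PBS and did not pass either. Tagln3, Myl12b, Tpm3, Tpm4 and Actb were named after their values were seen.

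**Figure D2:**
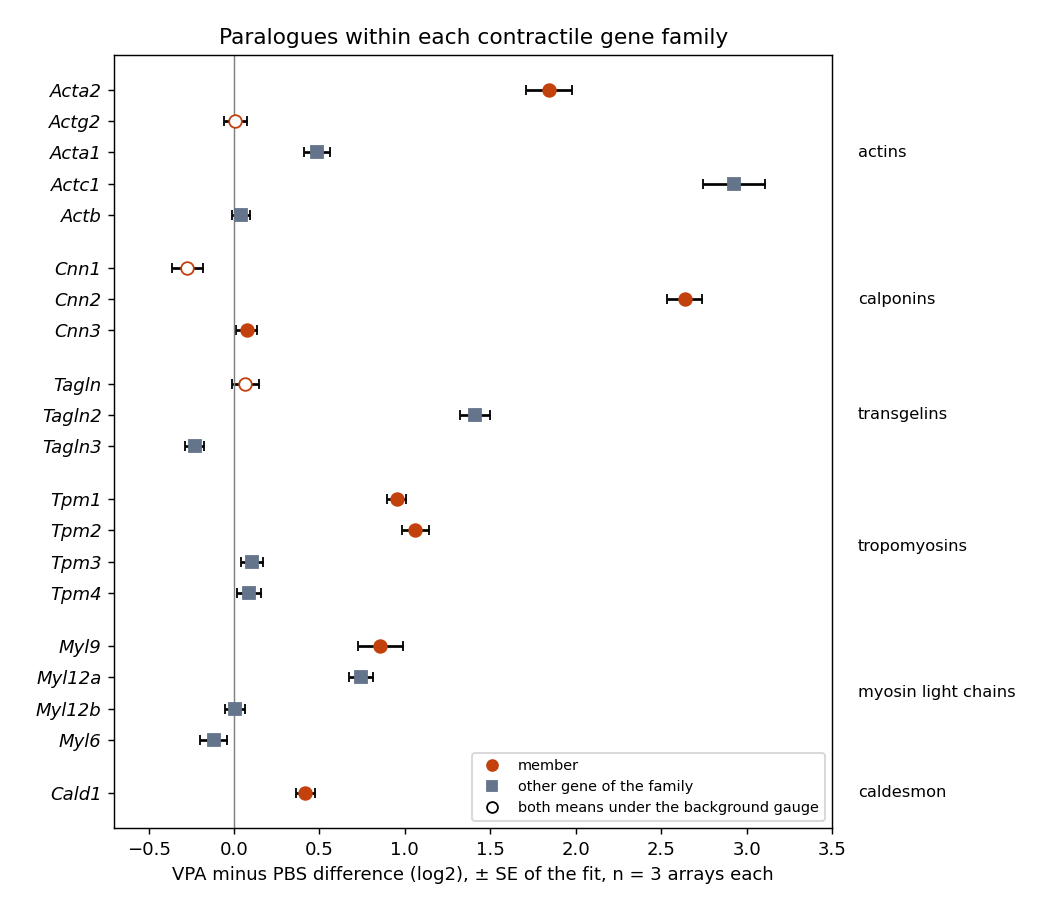
VPA minus PBS difference on the log2 scale (horizontal axis, ± SE of the fit, 3 arrays in each group) for members (circles) and for other genes of the same families (squares), with open symbols where both means lay under the background gauge. Actc1 at 2.93, Cnn2 at 2.64, Acta2 at 1.85 and Tagln2 at 1.41 lie far from 0, while Actg2, Tagln, Cnn3, Tpm3, Tpm4, Myl12b and Actb lie close to it.

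Of 15 further smooth muscle genes measured, 8 rose and 0 fell (median 0.25). Itga8, the integrin alpha 8 chain of smooth muscle and mesenchyme, had 8.04, 7.996 and 8.12 with VPA, against 6.16, 6.52 and 6.48 with PBS, and rose by 1.66 (SE 0.10, limma adjusted p = 6.35e-06). The LIM protein genes Pdlim3 and Csrp1 rose by 1.06 (SE 0.08) and 0.88 (SE 0.07), and Synpo2, an actin-binding gene of Z-discs and dense bodies, by 0.84 (SE 0.07), with its PBS mean under the gauge at 5.98. Myh11, the smooth muscle myosin heavy chain and the most specific marker of the lineage, averaged 6.51 ± 0.05 with VPA and 6.54 ± 0.02 with PBS (SD, n = 3 each), just above the gauge, and differed by -0.03 (SE 0.05, limma adjusted p = 0.746). Lmod1 and Kcnmb1, other genes of mature smooth muscle, lay below the gauge in both groups. The remaining rises were Des, the muscle intermediate filament gene, at 0.83 (SE 0.08), with its PBS mean of 5.71 under the gauge, the smoothelin gene Smtn at 0.58 (SE 0.09), the filamin gene Flna at 0.26 (SE 0.07) and Ppp1r14a, an inhibitor of myosin phosphatase, at 0.25 (SE 0.06). Mylk, Pdlim7, Ppp1r12b and Tns1 lay above the gauge in both groups and did not pass. Their differences were -0.05 (SE 0.05), 0.08 (SE 0.09), -0.14 (SE 0.06) and 0.10 (SE 0.18). Myh11, Lmod1, Kcnmb1, Mylk, Pdlim7, Ppp1r12b, Tns1, Des, Smtn, Flna and Ppp1r14a were named after their values were seen. Checked against the label of smooth muscle, the data were therefore mixed. Acta2, Cnn2, Myl9, Tpm1, Tpm2 and Cald1 were higher with VPA and 8 further genes rose. However, Cnn1, Tagln, Actg2, Lmod1 and Kcnmb1 were not told apart from background in either group. Myh11, Mylk, Pdlim7, Ppp1r12b and Tns1 were above the gauge and did not pass. The 10 genes are therefore referred to by their filament proteins. Without VPA replicate 1, 1 gene of this list fell, and with genes under the 50th percentile of mean level left out, 4 rose. That filter also removes list members, so a lower count need not be a lost call.

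Among SRF, its coactivators and other transcription factors linked to smooth muscle, 7 of 17 rose and 1 fell (median 0.18). Srf had 8.71, 8.23 and 8.24 with VPA, against 8.26, 8.25 and 8.23 with PBS. Only VPA replicate 1 stood above the PBS arrays, and Srf did not pass (0.15, SE 0.12, limma adjusted p = 0.391). Myocd, which encodes myocardin, had 5.71, 5.78 and 5.55 with VPA, against 5.45, 5.41 and 5.29 with PBS. It passed, at 0.30 (SE 0.08, limma adjusted p = 0.0172), but every array lay below the gauge, and the call was lost without VPA replicate 2, PBS replicate 2 or PBS replicate 3, where the differences were 0.25, 0.31 and 0.25. Elk3, an Ets factor that partners SRF, rose by 0.64 (SE 0.06), Gata6 by 0.53 (SE 0.06) and Mef2c by 0.39 (SE 0.09). The other rises were Mrtfb at 0.25 (SE 0.05), Klf5 at 0.25 (SE 0.06) and Klf4 at 0.21 (SE 0.05). The PBS mean of Klf4, 6.02, was under the gauge. Scai was the 1 that fell, at -0.21 (SE 0.06, limma adjusted p = 0.0231). Mrtfa, another MRTF gene, did not pass (0.13, SE 0.12, limma adjusted p = 0.467), and only VPA replicate 1 stood above all its PBS arrays. Tead1, at 0.10 (SE 0.06), did not pass, nor did Elk1, Elk4, Mef2a, Mef2d, Tcf21 and Tbx18. The list was not split into activators and repressors, so its counts have no single direction. Mrtfb, Klf5, Klf4, Scai, Mrtfa, Tead1, Elk1, Elk4, Mef2a, Mef2d, Tcf21 and Tbx18 were named after their values were seen. Without PBS replicate 2 or PBS replicate 3, 4 factors rose, and also 4 with genes under the 50th percentile of mean level left out. That filter also removes factors from the list. The count of falls was 2 without VPA replicate 1 and 0 without VPA replicate 2 or any 1 PBS array.

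Of 15 other target genes of SRF and the MRTFs, 12 rose and 0 fell (median 0.37). Ccn1, a secreted matricellular protein gene, had 8.20, 8.03 and 8.10 with VPA, against 6.98, 7.08 and 6.996 with PBS, and rose by 1.09 (SE 0.06, limma adjusted p = 7.32e-06). Vcl, which encodes the focal adhesion protein vinculin, had 9.14, 9.002 and 9.02 with VPA, against 8.01, 7.91 and 7.98 with PBS, a rise of 1.09 (SE 0.06, limma adjusted p = 6.47e-06). Thbs1 (thrombospondin) rose by 0.84 (SE 0.07) and Lima1, an actin crosslinker gene, by 0.72 (SE 0.06). The genes that did not pass were Zyx, Fos and Nexn. Ankrd1 was among the 12 that rose, but its means of 5.59 with VPA and 5.39 with PBS lay under the gauge. Both means of Nexn lay under it too. Without any 1 PBS array, 9 of these targets rose. Zyx, Fos, Nexn and Ankrd1 were named after their values were seen.

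Markers of cell types that make these filaments were set beside the members. All 12 fibroblast markers rose (median 1.52), and the list averaged 9.38 to 9.48 on the VPA arrays, against 7.67 to 7.88 on the PBS arrays. Of these markers 0 lay under the gauge in both groups, but the PBS mean of Fap, 5.58, was under it. Postn, Lum, Dcn and Prrx1 had the largest rises of the list, at 2.66 (SE 0.13), 2.29 (SE 0.12), 2.28 (SE 0.10) and 1.90 (SE 0.07). Of 10 pericyte markers 6 rose and 0 fell (median 0.35), with averages of 7.03 to 7.25 on the VPA arrays and 6.56 to 6.61 on the PBS arrays. Pdgfrb, the receptor that recruits pericytes and is also made by fibroblasts, rose by 1.10 (SE 0.12), Mcam by 0.88 (SE 0.06) and Anpep by 0.88 (SE 0.09). Vtn had 9.84, 8.62 and 8.20 with VPA, against 7.27, 7.56 and 7.33 with PBS, with VPA replicate 1 far above the other VPA arrays. It rose by 1.498 (SE 0.34), and the difference was 1.02 without VPA replicate 1. Kcnj8 and Abcc9, which encode the parts of 1 potassium channel of pericytes, were also among the 6, at 0.46 (SE 0.06, limma adjusted p = 0.000686) and 0.24 (SE 0.07, limma adjusted p = 0.0244). The mean of Kcnj8 was 6.5047 with VPA and 6.04 with PBS, under the gauge with PBS alone, while Abcc9, Rgs5 and Higd1b lay under it in both groups. The pericyte markers that did not pass were Rgs5, Cspg4, Notch3 and Higd1b. Fap, Kcnj8, Abcc9, Rgs5, Cspg4, Notch3 and Higd1b were named after their values were seen.

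Of 13 heart muscle markers 2 rose and 1 fell (median 0.03), with averages of 6.61 to 6.67 on the VPA arrays and 6.5003 to 6.55 on the PBS arrays. The share that rose, 15.4%, was near the 13.6% of all genes. Tnnt2, cardiac troponin T, rose by 0.89 (SE 0.10) and the factor gene Hand2 by 0.45 (SE 0.06), whereas the calcium release channel gene Ryr2 fell by 0.43 (SE 0.06). The cardiac myosin genes Myh6, Myl2 and Myl7 and the factor gene Tbx5 lay under the gauge in both groups. Without VPA replicate 1, 4 heart markers rose. Of 12 skeletal muscle markers 4 rose and 0 fell (median 0.03), with averages of 6.51 to 6.65 on the VPA arrays and 6.25 to 6.31 on the PBS arrays. Myh3, the embryonic myosin heavy chain, rose by 1.77 (SE 0.15) and the acetylcholine receptor gene Chrna1 by 0.58 (SE 0.08), both from PBS means below the gauge, at 5.21 and 5.71. Myog, a myogenic factor gene, rose by 0.42 (SE 0.07) and Tnnt3 by 0.33 (SE 0.10), the last a call lost without VPA replicate 3 or any 1 PBS array. Myf5 and Myf6 lay under the gauge in both groups. Of 13 neuron markers 2 rose and 9 fell (median -0.26), and 5 fell without PBS replicate 2. Here too the share that rose, 15.4%, was near that of all genes. The vesicle gene Syp fell by 0.40 (SE 0.06) and Dcx, of migrating young neurons, by 0.37 (SE 0.06), while Nefm rose by 1.24 (SE 0.06) and Nefl, another neurofilament gene, by 0.53 (SE 0.06). With genes under the 50th percentile of mean level left out, 3 pericyte, 0 heart and 0 skeletal muscle markers rose. That filter also removes list members, so a lower count need not be a lost call. Beside the 6 higher members, all 12 fibroblast markers and 6 of 10 pericyte markers rose, against 13.6% of all genes. Of the neuron markers 9 of 13 fell, against 15.7% of all genes. The part of these cell types in the members' differences was not tested. Tbx5, Myh6, Myl2, Myl7, Myf5 and Myf6 were named after their values were seen.

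**Figure D3:**
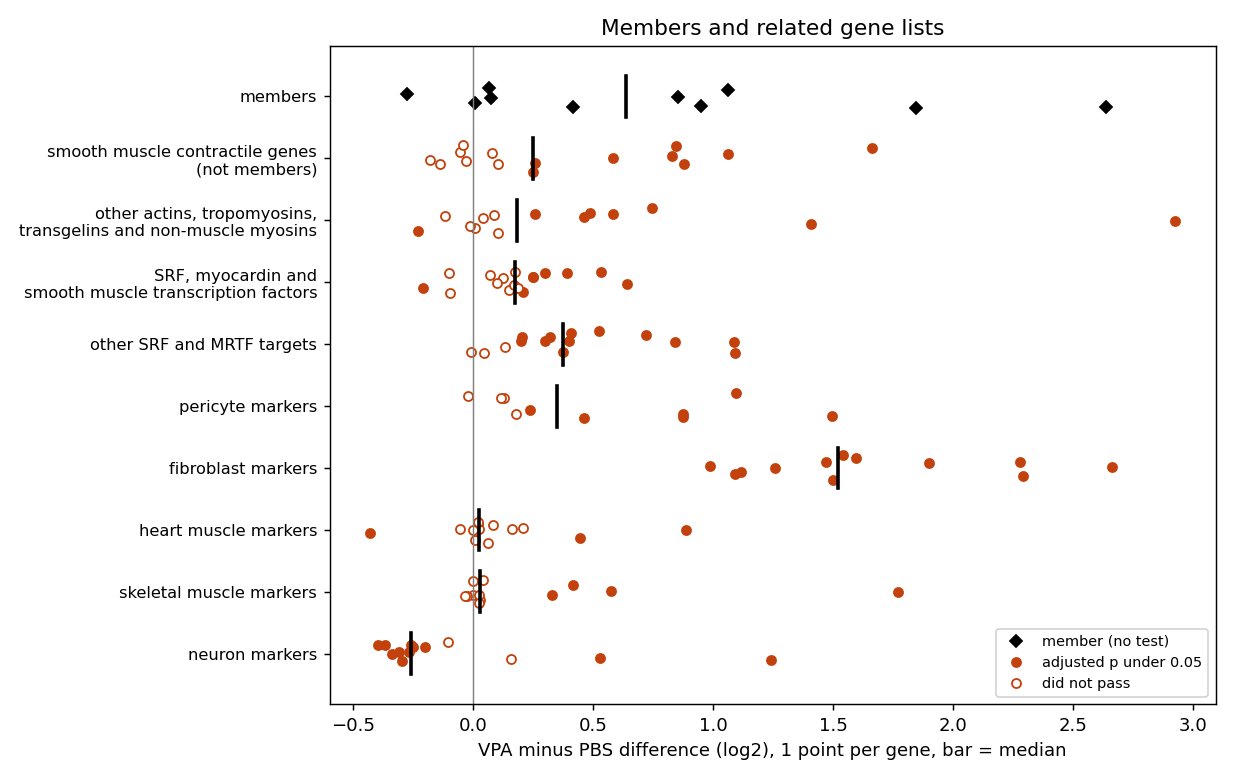
VPA minus PBS difference on the log2 scale (horizontal axis), 1 point per gene, for the 10 members (diamonds, no test) and for the lists of related genes and markers (filled circles passed limma at an adjusted p under 0.05, open circles did not), with a bar at each median. The fibroblast markers all lie to the right, from 0.99 to 2.66, the members spread from -0.27 to 2.64, and most heart and skeletal muscle markers lie near 0.

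The genes whose pattern over the 6 arrays was most like that of the members were found among the 328 other genes with a difference of at least 1, by Pearson correlation with the mean of the members after each was centred and scaled. They were Adgrg6, an adhesion receptor gene (r = 0.998), Antxr2, a receptor gene for matrix ligands (r = 0.997), Lpar1, the lysophosphatidic acid receptor gene (r = 0.997), the T-box gene Tbx15 (r = 0.995) and Fmr1nb (r = 0.995). The PBS mean of Fmr1nb, 5.67, lay under the background gauge. Each point is 1 array and 3 arrays share each treatment, so such values mostly follow the difference between groups and are descriptive. Adgrg6 had 7.76, 7.79 and 7.94 with VPA, against 6.84, 6.73 and 6.71 with PBS. Lpar1 had 8.90, 8.90 and 8.99 with VPA, against 7.36, 7.30 and 7.17 with PBS. Of the members themselves, Tpm1, Cald1, Cnn2, Acta2 and Tpm2 followed their own mean at r = 0.976 to 0.992 and Myl9 at 0.881, whereas Cnn3 stood at 0.627, Tagln at 0.346, Actg2 at 0.0876 and Cnn1 at -0.723.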

How the data were processed

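Total RNA was extracted with Trizol and labelled with biotin by an Affymetrix whole transcript method, per the labels' protocols. The values used were log2 signals per probe set, deposited by the authors as 1 column per array; base 2 was inferred from the range, 2.5 to 13.89. How they were background-corrected, summarized and normalized is not given in the sources used here; per the submitters' processing notes, Partek 6.5 and mm9 were involved, without a stated role. Array medians were nearly equal, so differences are relative to the other genes, and the number of arrays limits the precision.

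GEO's platform annotation gave 1 symbol for 21789 of 35556 probe sets, several for 1621 and none for 12146. Old symbols were replaced where the Entrez ID matched RefSeq (21698 probe sets). Genes with more than 1 probe set took the brightest over the 6 arrays. limma 3.58.1 in R 4.3.3 (lmFit, eBayes, no covariates) was fitted to 19938 genes, with Benjamini-Hochberg adjustment, and gave every adjusted p and SE; it was tested on simulated data. The smallest two-sided p of an exact permutation test of 3 arrays against 3 is 0.1, so none was used.

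The members and gene lists were chosen with earlier results of these data known. Named were all members, Srf and Myocd, the up to 4 genes per list that passed with the largest change, and 5 genes of like pattern; all other genes with values were named after their values were seen. Actg1 was not analysed here, and 1 list of genes is not reported here.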

Additional observations from a re-analysis of the deposited data

How the results depend on the processing

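Every filter on dim genes removed Actg2, Tagln and Cnn1, and that at the 50th percentile also Myl9. Under the alternatives that gave a value, the members kept the sign of their difference except Actg2 and Tagln, at background, whose differences ranged from -0.05 to 0.07 and from -0.02 to 0.13 when arrays were left out. Tpm1 moved by more than its small replicate spread after quantile normalization, to 1.00. The members whose groups did not overlap numbered 7 to 8 when each array was left out, 6 at the 30th percentile and the gauge and 5 at the 50th. Leaving out an array cannot make separated groups overlap, and the filters lowered the count only by removing members. These counts are therefore no check on the members. Leaving out genes under the 50th percentile of mean level, which also removes list members, gave 1520 genes higher, and the counts of rises became 4 for further smooth muscle genes, 4 for SRF and other factors, 3 for pericytes, 0 for heart muscle and 0 for skeletal muscle. At the 30th percentile, and at the background gauge (a filter added after seeing the data), 2 skeletal muscle markers rose. Quantile normalization left 0 falls among SRF and other factors. With each array left out in turn, genes higher ranged from 1778 to 3949 and genes lower from 2058 to 4224. Rises ranged from 4 to 7 for SRF and other factors and 2 to 4 for heart muscle. Falls ranged from 0 to 1 for further smooth muscle genes, 0 to 1 for other actins and tropomyosins, 0 to 2 for SRF and other factors and 5 to 9 for neurons. Where no filter shows it, the cause was not tested.

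The labels number the arrays 1 to 3 in both groups, but same-numbered arrays did not deviate together (r = -0.020, -0.008 and 0.020 over genes), so the numbers were not taken as pairs. With the replicate number as a block, 2592 genes were higher and 2818 lower, and none of the list counts given here moved by over 1.5 times. Signals near 6.15 limit what can be said of Actg2, Tagln, Cnn1 and Myocd.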
